A study of Mus musculus with 44 samples.

Results

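Monocytes that had entered the injured spinal cord were set against resident microglia of injured cord in the acute phase, at 16 h and day 1 after injury. All 8218 genes of the in vivo table were compared. The comparison used 8 of the 44 libraries of the series: 2 monocyte libraries at 16 h and 2 at day 1, against 2 microglia libraries at 16 h and 2 at day 1. All 8 came from C57BL/6 mice that received a contusion of 200 kdyn after a laminectomy at the T12 vertebra, and the labels record neither their age nor their sex. Cells were sorted from the cord, and the series calls the monocytes monocyte-derived macrophages. The labels give no gate for the sort. No label says that the libraries of a group came from separate animals, so each p-value speaks only of the variation among the sequenced libraries, which may be technical.

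Microglia settle in the central nervous system before birth and renew themselves there. They are known for the fractalkine receptor, complement C1q and lysosomal genes. Monocytes come from the bone marrow, enter injured tissue through the chemokine receptor CCR2 and turn into macrophages there. Neutrophils, short-lived granulocytes that are among the first blood cells at a wound, carry granule proteins that neither macrophage makes in quantity. Genes known from neutrophils were therefore kept apart as a list of defining genes and a list of genes that activated macrophages also express.

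Values are a signal per gene, read as counts that the submitters scaled per library, and exactly 1 stands where no read was counted. In monocytes and in the 2 microglia libraries at 16 h, a gene without a read is therefore listed above a gene with 1 read. Reads were estimated over the genes of the table, from the step of which most low values were whole multiples. That gave 354629 to 728097 reads in the monocyte libraries and 58549 to 151786 in the microglia libraries. A single read was worth 0.170 to 0.367 in monocytes and 0.988 to 2.30 in microglia, so a low value is less precise in microglia. Genes without a read made up 7.40% to 13.5% of the table in monocyte libraries and 20.1% to 37.9% in microglia libraries. Pearson's r between the 2 libraries of a group, across genes that are not independent, was 0.928 at 16 h and 0.901 at day 1 in monocytes, and 0.757 at 16 h and 0.705 at day 1 in microglia. The part of this difference in depth in the results below was not tested.

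Markers of the monocyte label were mixed. Ccr2 and F13a1 were higher in monocytes, while Ly6c2, Chi3l3 and Ms4a4c, given below, did not pass the test. Ccr2 stood at 101, 64.1, 91.3 and 136 in monocytes against 12.98, 11.9, 21.1 and 25.3 in microglia, where each set of 4 values gives 16 h replicates 1 and 2 and then day 1 replicates 1 and 2. All 4 monocyte libraries lay above all 4 of microglia (log2 difference 2.41, SE 0.49, adjusted p = 0.00275). The microglia libraries carried Cx3cr1 and the C1q genes, all higher than in monocytes as given below. P2ry12, the receptor that marks resting microglia, was near the floor of detection in both, with 2.55, 1.88, 1.83 and 1.06 in monocytes against 2.99, 5.93, 1 and 2.30 in microglia. Sall1, a transcription factor that defines microglia, was not in the table. Csf1r, the receptor for colony stimulating factor 1 that both cell types use, had 164, 149, 141 and 158 in monocytes against 102, 227, 130.1 and 111 in microglia (adjusted p = 0.917).

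Across all genes, 83 were called higher and 157 lower in monocytes at an adjusted p under 0.05 (limma on log2(signal + 1), Benjamini-Hochberg adjustment). These 240 were 2.92% of the 8218 genes tested, 1.01% higher and 1.91% lower. Counts of list members called are to be read against these shares. In 222 of the 240 the 4 monocyte libraries did not overlap with the 4 of microglia, while over all genes the monocyte libraries were all above in 7.54% and all below in 5.29%. Of the 157 genes lower in monocytes, 28 were defining neutrophil genes, 7 neutrophil genes shared with macrophages and 11 microglia identity genes, which left 111 others. No gene of either neutrophil list was called higher in monocytes. Of the 240 calls, 113 held in each of 8 fits that left out 1 library, 26 of the higher and 87 of the lower. The number called without 1 library lay between 138 without monocyte 16 h replicate 2 and 253 without microglia day 1 replicate 1, and 4 of those counts were over 1.5 times below the full one, each without a monocyte library. In bulk RNA of a sorted population, fewer cells of a type and less RNA per cell cannot be told apart.

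**Figure D1:**
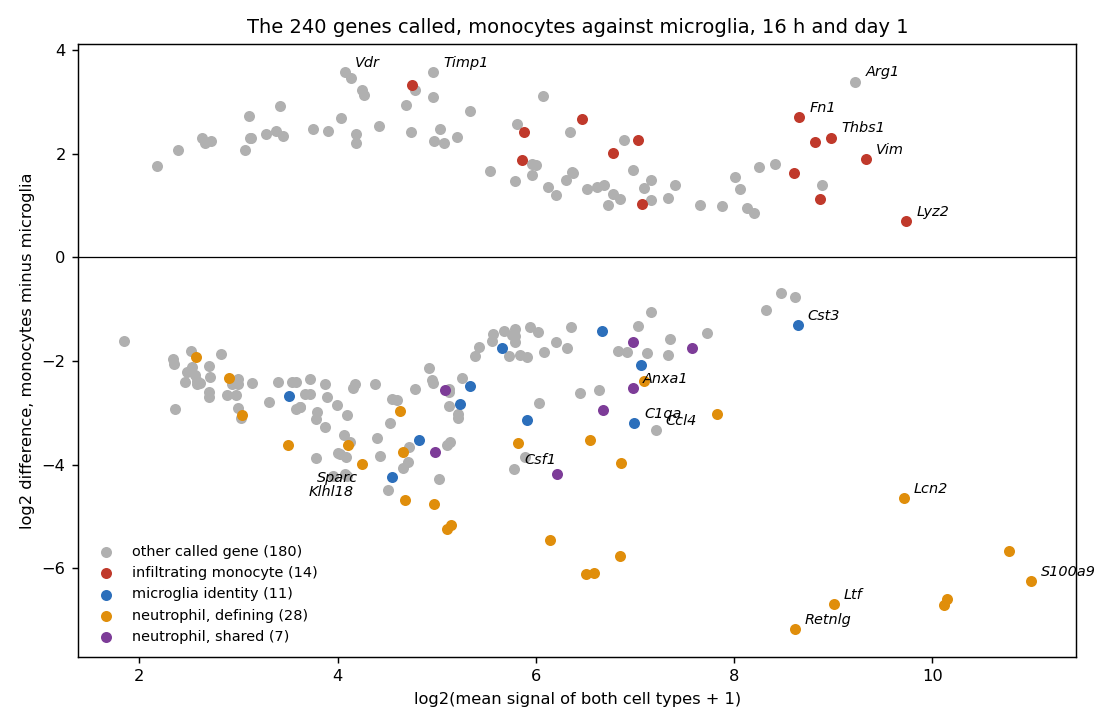
Each point is 1 of the 240 called genes, with the mean signal of both cell types on the x axis (log2) and the log2 difference, monocytes minus microglia, on the y axis. Defining neutrophil genes (28) lie at the bottom down to Retnlg at -7.18, and microglia identity genes (11) lie between -1.31 for Cst3 and -4.24 for Sparc.

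Genes for extracellular matrix and its proteases were mostly on the higher side. Of 27 measured members of 34, 9 were called higher and 4 lower, beside 1.01% and 1.91% of all genes, and the list's median log2 difference was 1.17, against 0.00 for all genes and 0.15 for the 2502 genes with a mean signal of at least 10. Fn1, fibronectin, had 435, 487, 845 and 1051 in monocytes against 96.8, 88.9, 146 and 78.3 in microglia (log2 difference 2.71, SE 0.38, adjusted p = 1.87e-05). Thbs1, the matricellular protein thrombospondin 1, had 1032, 1153, 522 and 647 in monocytes against 115, 259, 185 and 117 in microglia (log2 difference 2.31, SE 0.35, adjusted p = 7.74e-05). In both genes every monocyte library was above every microglia library, and the highest monocyte values of Fn1 came at day 1 and those of Thbs1 at 16 h. Tgfbi, a matrix protein induced by TGF-beta, had 514, 631, 507 and 695 in monocytes against 154, 184, 229 and 187 in microglia (log2 difference 1.64, SE 0.28, adjusted p = 0.000468). F13a1, the A chain of the clotting factor that cross-links fibrin, had 279, 252, 143 and 178 in monocytes against 64.4, 18.8, 60.04 and 41.5 in microglia (log2 difference 2.27, SE 0.40, adjusted p = 0.000566). Timp1, an inhibitor of metalloproteases, had 50.4, 50.2, 92.8 and 29.04 in monocytes against 1, 5.93, 1.11 and 11.5 in microglia (log2 difference 3.58, SE 0.73, adjusted p = 0.00315). Mmp19, Ecm1 and Lgals3 were also among the 9, with log2 differences of 2.26, 2.42 and 1.13. The 4 members lower in monocytes were the neutrophil proteases Mmp8 and Mmp9, the metalloprotease inhibitor Timp2 (log2 difference -2.99, SE 0.61, adjusted p = 0.00283) and Sparc, a collagen-binding protein of microglia and endothelium. Among members that did not pass the test, Lgals1 was at 1.88 (adjusted p = 0.0978), F10 at 1.70 (adjusted p = 0.0629) and Vcan at 1.98 (adjusted p = 0.158). The matrix genes together made 3.21% to 3.89% of the library total in monocytes, against 1.15% to 1.603% in microglia. Ecm1 lost its call in 4 of the 8 fits without 1 library, with an adjusted p of up to 0.118 without microglia 16 h replicate 1. Without a variance trend in the fit Tgfbi, Lgals3 and Ecm1 did not pass (adjusted p = 0.0778, 0.188 and 0.056).

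Of 40 measured genes known from infiltrating monocytes, 14 were higher in monocytes and none was lower, beside 1.01% and 1.91% of all genes. Their median log2 difference was 1.10. The 40 genes made 6.62% to 8.70% of the library total in monocytes, against 2.96% to 3.70% in microglia. The smallest p belonged to Vim, the intermediate filament vimentin, with 891, 1293, 1038 and 826 in monocytes against 279, 328, 340.2 and 164 in microglia (log2 difference 1.89, SE 0.21, adjusted p = 5.09e-07). S100a10, the partner of annexin A2, had 85.7, 109.5, 223 and 181 in monocytes against 15.97, 8.89, 42.2 and 32.2 in microglia (log2 difference 2.67, SE 0.51, adjusted p = 0.00151). S100a4, known from motile cells, had 124, 127, 276 and 170.0 in monocytes against 40.9, 18.8, 60.04 and 55.3 in microglia (log2 difference 2.01, SE 0.45, adjusted p = 0.00691), and its call was lost in 3 of the 8 fits without 1 library, with an adjusted p of up to 0.0683 without microglia 16 h replicate 2. Ms4a8a, a tetraspan protein of macrophages, had 40.9, 42.4, 29.3 and 78.7 in monocytes against 1, 4.94, 5.56 and 4.61 in microglia (log2 difference 3.32, SE 0.64, adjusted p = 0.00149). The lysozyme genes Lyz1 and Lyz2 were at 1.03 and 0.70. These are near-identical copies whose reads the counting may have split, and their calls were lost in 7 and 6 of the 8 fits. The classical surface marker Ly6c2 did not pass the test, with 45.9, 30.8, 35.01 and 48.8 in monocytes against 126, 39.5, 43.4 and 42.99 in microglia (log2 difference -0.48, SE 0.34, adjusted p = 0.632). Without a variance trend S100a4, Lyz1 and Lyz2 did not pass (adjusted p = 0.081, 0.321 and 0.531), and neither lysozyme gene passed after scaling to a total without neutrophil genes. Ms4a4c was at 2.31 (adjusted p = 0.0577) and Crip1 at 1.58 (adjusted p = 0.0673).

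**Figure D2:**
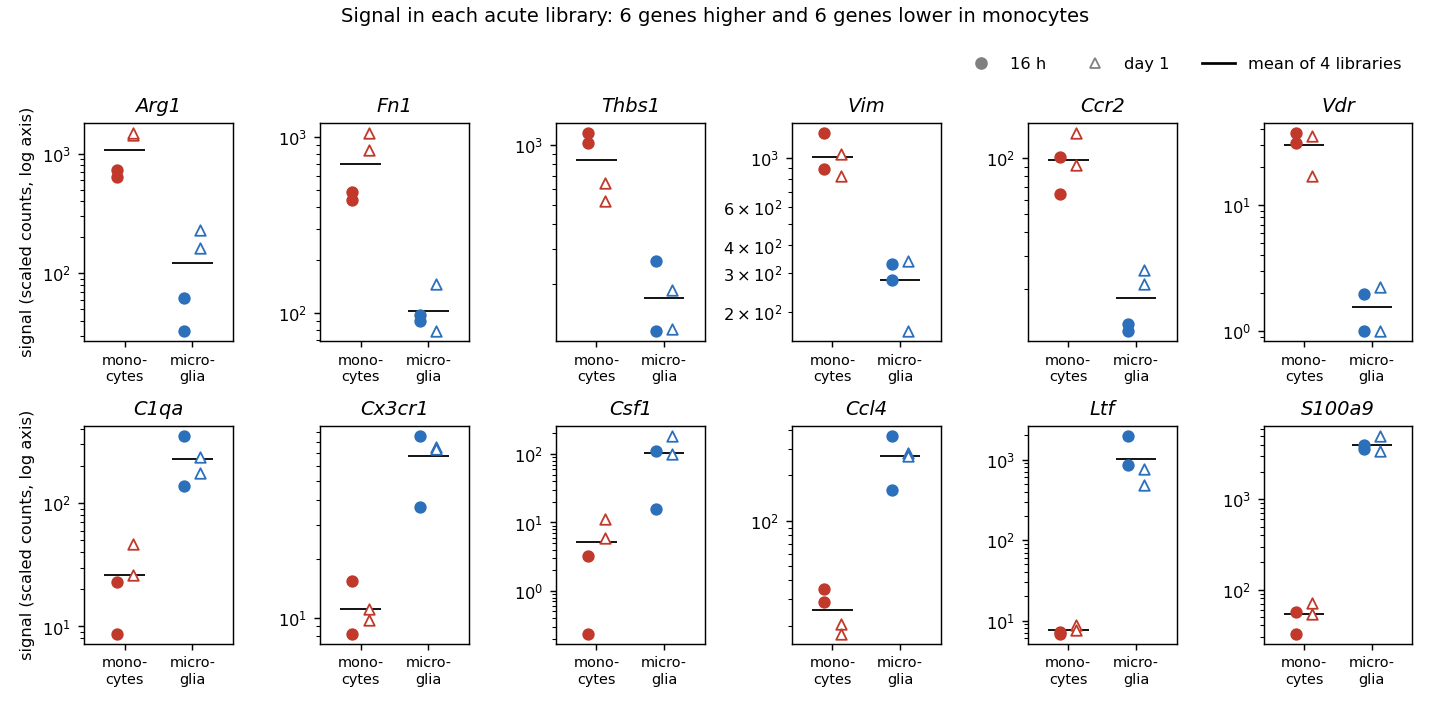
Signal of 12 genes in each acute library on log axes, monocytes to the left of microglia, circles for 16 h and triangles for day 1, with a bar at the mean of 4 libraries. In each panel the 4 monocyte points lie wholly above those of microglia (Arg1, Fn1, Thbs1, Vim, Ccr2, Vdr) or wholly below them (C1qa, Cx3cr1, Csf1, Ccl4, Ltf, S100a9).

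Genes of alternative activation, the repair-associated state driven in mice by interleukin 4, had 2 of 18 measured members higher and none lower, beside 1.01% and 1.91% of all genes. The median was 0.30, or 0.16 with genes that had no read in any library of a cell type set to 3 reads there. Cd36, a scavenger receptor without a read in the 4 microglia libraries, had 10.9, 3.77, 0.733 and 3.43 in monocytes (adjusted p = 0.249). Arg1, arginase 1, which turns arginine into ornithine, had 729, 643, 1433 and 1485 in monocytes against 32.9, 62.3, 231 and 164 in microglia (log2 difference 3.39, SE 0.30, adjusted p = 4.82e-09). Its mean was 8.75 times that of microglia, and within microglia its values were higher at day 1 than at 16 h. Tgm2, a transglutaminase that cross-links proteins, had 824, 713, 289 and 326 in monocytes against 79.9, 201, 146 and 152 in microglia (log2 difference 1.81, SE 0.41, adjusted p = 0.00826), with a call lost in 3 of the 8 fits and an adjusted p of up to 0.108 without microglia 16 h replicate 1 and of 0.115 without a variance trend. Chi3l3, the lectin Ym1, was at -0.49 (adjusted p = 0.563) and Il1rn at -1.03 (adjusted p = 0.395). Nos2, which makes nitric oxide from the same arginine and marks the inflammatory state, was higher in monocytes too. It had 16.97, 16.5, 13.9 and 8.71 in monocytes against 2.00, 0.988, 1 and 1 in microglia (log2 difference 2.73, SE 0.46, adjusted p = 0.00039), and 2 of the microglia libraries had no read of it. Nos2 is on none of the lists and was chosen after its values were seen.

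The genes with the greatest differences outside the neutrophil lists, among those with a mean of at least 20 in monocytes and no overlap, were Vdr, Timp1, Sdc1, Arg1, Ms4a8a, Sh3pxd2b, Uck2, Lmna, Dab2, Emp1, Hif1a and Vegfa. Vdr, the nuclear receptor for vitamin D, had 37.3, 30.9, 35.2 and 16.9 in monocytes against 0.998, 1.98, 2.22 and 1 in microglia (log2 difference 3.58, SE 0.60, adjusted p = 0.000357). Sdc1, the heparan sulfate carrier syndecan 1, had 24.4, 40.01, 29.1 and 31.2 in monocytes against 0.998, 2.96, 3.34 and 1 in microglia (log2 difference 3.46, SE 0.61, adjusted p = 0.0006). Sh3pxd2b, a scaffold of podosomes, had 31.6, 32.7, 37.03 and 29.8 in monocytes against 5.99, 4.94, 1 and 1 in microglia (log2 difference 3.23, SE 0.67, adjusted p = 0.00346). These 3 stood at a few reads or none in each microglia library and kept their calls without any 1 library. Lmna, lamin A/C of the nuclear envelope, was at 3.14 and lost its call without monocyte day 1 replicate 1 alone (adjusted p = 0.0553). Uck2, a uridine kinase, was at 3.23, Dab2, an endocytic adaptor, at 3.11, and Emp1, a membrane protein, at 3.10. Those calls were lost in 4, 6 and 7 of the 8 fits, with an adjusted p of up to 0.0777, 0.175 and 0.174. The first 2 of these maxima came without microglia 16 h replicate 1 and that of Emp1 without microglia day 1 replicate 2. Dab2 and Emp1 also missed the threshold without a variance trend (adjusted p = 0.0501 and 0.0521), and Emp1 with values of 1 set to 0 (adjusted p = 0.0925).

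Further genes of the 83 are given as chosen after their values were seen. Sdc4, syndecan 4, a partner of fibronectin receptors, had 123, 120.2, 73.3 and 63.1 in monocytes against 6.99, 13.8, 18.9 and 23.03 in microglia (log2 difference 2.58, SE 0.59, adjusted p = 0.00898). Ripk3, the kinase of necroptosis, had 13.4, 13.9, 20.53 and 23.5 in monocytes against 1, 1, 3.34 and 1 in microglia (log2 difference 2.92, SE 0.65, adjusted p = 0.00693). Adora2b, an adenosine receptor, was at 2.38, with reads in every monocyte library. Their calls were lost in 4, 1 and 6 of the 8 fits, with an adjusted p of up to 0.0626 without monocyte day 1 replicate 1, 0.053 without microglia day 1 replicate 2 and 0.147 without microglia day 1 replicate 2. Adora2b had an adjusted p of 0.0837 with values of 1 set to 0. Papss2, a sulfate donor synthase, and Ednrb, an endothelin receptor, had no read in any of the 4 microglia libraries. Papss2 stood at 14.3, 5.42, 10.6 and 7.39 in monocytes and Ednrb at 4.24, 4.24, 7.70 and 7.92, and no fold is given for them. Papss2 lost its call in 2 of the 8 fits and Ednrb in 7, with an adjusted p of up to 0.0808 without monocyte 16 h replicate 1 and 0.0931 without monocyte 16 h replicate 2.

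Of the glycolysis and hypoxia list, 2 of 27 measured members were higher and 1 lower in monocytes, beside 1.01% and 1.91% of all genes (median 0.77). Hif1a, the oxygen-regulated transcription factor, had 48.5, 47.1, 30.4 and 47.8 in monocytes against 1, 12.8, 5.56 and 4.61 in microglia (log2 difference 2.95, SE 0.72, adjusted p = 0.0144). Vegfa, the vessel growth factor that it drives, had 97.9, 94.2, 45.5 and 33.3 in monocytes against 9.98, 4.94, 26.7 and 2.30 in microglia (log2 difference 2.82, SE 0.73, adjusted p = 0.026), with its highest monocyte values at 16 h. Hif1a lost its call in 5 and Vegfa in 7 of the 8 fits, with an adjusted p of up to 0.161 without microglia 16 h replicate 1 and 0.246 without microglia day 1 replicate 2. With values of 1 set to 0 the adjusted p was 0.0512 for Hif1a and 0.0653 for Vegfa, which missed it without a variance trend too (adjusted p = 0.0656). Among members that did not pass the test, the glycolytic enzyme Tpi1 was at 1.54 (adjusted p = 0.257) and Pgk1 at 1.18 (adjusted p = 0.273). Hk3, the hexokinase of myeloid cells, was the member lower in monocytes, at 21.4, 9.19, 26.8 and 32.7 in monocytes against 121, 73.1, 71.2 and 62.2 in microglia (log2 difference -1.90, SE 0.39, adjusted p = 0.00303).

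Chemokine ligands moved in both directions: 4 of 18 measured were higher and 2 lower in monocytes, beside 1.01% and 1.91% of all genes. Ccl9, a chemokine of myeloid cells, had 460.2, 401, 1017 and 1093 in monocytes against 76.9, 123, 265 and 164 in microglia (log2 difference 2.23, SE 0.35, adjusted p = 0.000132). Ccl2, the ligand of CCR2 that draws in monocytes, had 216, 339, 688 and 638 in monocytes against 51.9, 155, 198 and 154 in microglia (log2 difference 1.75, SE 0.42, adjusted p = 0.013). In monocytes both day 1 values were above both 16 h values. Ccl17, a ligand of CCR4, was at 2.31, and Pf4, platelet factor 4, at 2.53. The call of Ccl2 was lost in 5 of the 8 fits and that of Pf4 in 7, with an adjusted p of up to 0.152 without microglia 16 h replicate 1 and 0.19 without microglia day 1 replicate 1. Ccl17 lost its call without monocyte day 1 replicate 1 (adjusted p = 0.0779). Setting values of 1 to 0 ended the calls of Pf4, Ccl17 and Ccl3 (adjusted p = 0.0697, 0.0534 and 0.0843), and a fit without a variance trend those of Ccl2 and Ccl3 (adjusted p = 0.115 and 0.106). In the other direction, Ccl4, an inflammatory chemokine, had 28.7, 35.1, 20.53 and 17.7 in monocytes against 159.7, 367, 280.2 and 269 in microglia (log2 difference -3.34, SE 0.53, adjusted p = 0.000162). Its neighbour Ccl3 had 13.2, 17.4, 43.3 and 27.7 in monocytes against 57.9, 329, 195 and 108 in microglia (log2 difference -2.57, SE 0.70, adjusted p = 0.0369), and its call was lost in 7 of the 8 fits, with an adjusted p of up to 0.278 without microglia 16 h replicate 2. Ccl12, another ligand of CCR2 in mice, was at -2.53 and did not pass the test (adjusted p = 0.0554).

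Among 11 measured chemokine receptors, Ccr2 was higher in monocytes and Cx3cr1, Cxcr2 and Ccrl2 lower, beside 1.01% and 1.91% of all genes. Cx3cr1, the receptor for fractalkine, had 15.4, 8.25, 10.999 and 9.77 in monocytes against 36.9, 85.95, 75.05 and 73.7 in microglia (log2 difference -2.47, SE 0.47, adjusted p = 0.00132). Cxcr2 is the main chemokine receptor of neutrophils and belongs to their defining list. Ccrl2, an atypical receptor that activated neutrophils and macrophages both carry, was at -2.55, with its call lost in 6 of the 8 fits and an adjusted p of up to 0.277 without monocyte day 1 replicate 1 and of 0.112 with values of 1 set to 0.

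Cytokines and growth factors divided in the same way, with 2 of 24 measured members higher and 2 lower, beside 1.01% and 1.91% of all genes. Tgfb1, the ligand used in the culture part of the series, had 77.7, 126, 90.2 and 85.8 in monocytes against 25.95, 29.6, 37.8 and 16.1 in microglia (log2 difference 1.79, SE 0.38, adjusted p = 0.00492). Without monocyte 16 h replicate 2 its adjusted p was 0.0698. Csf1, a growth factor of microglia and other macrophages, had 3.22, 0.236, 5.87 and 11.1 in monocytes against 15.97, 112, 186 and 99.04 in microglia (log2 difference -4.08, SE 0.71, adjusted p = 0.000536). The lowest microglia library, 16 h replicate 1, was above the highest monocyte library, and the other 3 microglia libraries lay higher still. Tnf, tumour necrosis factor, had 2.88, 3.30, 12.1 and 4.22 in monocytes against 19.96, 56.3, 47.8 and 39.2 in microglia (log2 difference -2.75, SE 0.70, adjusted p = 0.0227), and its call was lost in 6 of the 8 fits, with an adjusted p of up to 0.161 without monocyte day 1 replicate 2 and of 0.0953 with values of 1 set to 0. Il1b, interleukin 1 beta, did not pass the test, with 580.3, 557, 291 and 217 in monocytes against 249, 631, 825 and 504 in microglia (log2 difference -0.42, SE 0.35, adjusted p = 0.716). Spp1, osteopontin, had 45.1, 51.6, 348 and 566 in monocytes against 30.9, 48.4, 155 and 80.6 in microglia (adjusted p = 0.362), with its highest values in the day 1 monocytes.

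Antigen presentation by MHC class II gave 2 higher and no lower members of 15 measured, beside 1.01% and 1.91% of all genes (median 0.90). H2-Aa, an alpha chain, had 595, 378, 255 and 303 in monocytes against 119.8, 67.2, 177 and 161 in microglia (log2 difference 1.55, SE 0.26, adjusted p = 0.000295). Cd74, the invariant chain that guards the peptide groove, had 956, 720.2, 550.3 and 525 in monocytes against 265, 176, 260.2 and 332 in microglia (log2 difference 1.40, SE 0.24, adjusted p = 0.00039). In both genes the 16 h monocytes were the highest of the 8 libraries. The beta chain H2-Eb1 was at 0.94 (adjusted p = 0.195), H2-DMb1 of the peptide exchanger at 1.92 (adjusted p = 0.0857) and the thiol reductase Ifi30 at 1.24 (adjusted p = 0.0612). Fitted without a variance trend, neither H2-Aa (adjusted p = 0.0804) nor Cd74 (adjusted p = 0.117) passed, and the list had no call.

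Fc receptors and scavenging genes gave 2 higher and 1 lower of 26 measured, beside 1.01% and 1.91% of all genes. Fcgr1, the high-affinity receptor for IgG, was at 1.88, but its call was lost in each of the 8 fits without 1 library (adjusted p of up to 0.158 without monocyte day 1 replicate 2). Cd93, a complement-related receptor, was at 2.48 and lost its call in 7 of 8, with an adjusted p of up to 0.305 without microglia 16 h replicate 1. Cd300lf, an inhibitory receptor that neutrophils share, was lower in monocytes (log2 difference -1.63, SE 0.35, adjusted p = 0.00441). In a fit without a variance trend none of Fcgr1, Cd93 and Cd300lf passed (adjusted p = 0.0793, 0.0673 and 0.0575).

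Ribosomal protein genes were also on the higher side. They were gathered by symbol after the values were seen, so their count is a description. Of 73 such genes, 10 were called higher and none lower, beside 1.01% and 1.91% of all genes. The median log2 difference of the 73 was 1.01. Together they made 4.14% to 5.72% of the library total in monocytes, against 2.01% to 2.52% in microglia. Rplp0 had 259.8, 270.0, 211 and 236 in monocytes against 106, 87.5, 99.8 and 76.6 in microglia (log2 difference 1.40, SE 0.27, adjusted p = 0.00157). Processed copies of these genes are common in the mouse genome, so single members are uncertain. The translation factor Eef1a1 was at 1.23 and Tpt1, which is regulated with the ribosome, at 1.32. None of Rplp0, Eef1a1 and Tpt1 passed without a variance trend (adjusted p = 0.0964, 0.135 and 0.0933).

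No other list had so many members called as the defining neutrophil genes, and all 28 called were lower in monocytes. Defining neutrophil genes (37 measured of 41; Ly6g was not in the table) made 0.292% to 0.404% of the library total in monocytes, against 8.96% to 16.6% in microglia. The means were 0.347% ± 0.0531 in monocytes and 12.5% ± 3.19 in microglia (SD, n = 4 each). That the microglia libraries carry these genes was known when the list was set apart, so the share is a description with no test. Retnlg, a resistin-like protein of neutrophils, had 6.28, 1.18, 4.77 and 7.39 in monocytes against 1029, 816, 673 and 589.6 in microglia (log2 difference -7.18, SE 0.38, adjusted p = 7.19e-14). Ltf, lactoferrin of the secondary granules, had 7.30, 6.83, 8.80 and 7.66 in monocytes against 1984, 853, 484 and 767 in microglia (log2 difference -6.69, SE 0.39, adjusted p = 7.25e-13). S100a9, a subunit of calprotectin, had 57.01, 32.3, 53.5 and 71.02 in monocytes against 3598, 4005, 3439.9 and 5081 in microglia (log2 difference -6.25, SE 0.41, adjusted p = 1.33e-06). Its partner S100a8 was at -5.66, and the granule genes Ngp, Camp and Lcn2 were at -6.59, -6.72 and -4.66. With 28 of its members called, the list had a median log2 difference of -3.62. Members that did not pass included Elane, neutrophil elastase, which had 43.99, 59.9, 36.3 and 32.6 in monocytes against 29.6, 58.3, 7.41 and 14.97 in microglia (log2 difference 0.95, SE 0.46, adjusted p = 0.373), and Mpo, myeloperoxidase, with 0.339, 1, 1 and 1.32 in monocytes against 1, 10.9, 1 and 1 in microglia. Those enzymes are made early in granulocyte growth, and whether that bears on their values was not tested. In Elane the groups overlapped.

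Neutrophil genes that macrophages share gave 7 lower and no higher members of 32 measured, beside 1.91% and 1.01% of all genes (median -0.71). Anxa1, annexin A1, had 27.5, 23.3, 39.96 and 59.1 in monocytes against 301, 224, 142 and 187 in microglia (log2 difference -2.52, SE 0.31, adjusted p = 3.72e-06). G0s2, an inhibitor of lipolysis, had 11.03, 11.1, 4.03 and 1.06 in monocytes against 117, 253, 156 and 34.5 in microglia (log2 difference -4.19, SE 0.54, adjusted p = 5.11e-06), and Ifitm6 was at -2.94. Hp, haptoglobin, which binds free haemoglobin, had 102, 119, 63.8 and 65.5 in monocytes against 386, 215, 246 and 325 in microglia (log2 difference -1.74, SE 0.29, adjusted p = 0.000289), with an adjusted p of 0.0519 without a variance trend. Irg1, the enzyme that makes itaconate, had 1.36, 4.01, 3.67 and 3.96 in monocytes against 35.9, 90.9, 65.6 and 39.2 in microglia (log2 difference -3.76, SE 0.64, adjusted p = 0.000429). Cxcl2, a chemokine that draws in neutrophils, did not pass the test, with 538, 623, 437 and 309.6 in monocytes against 380.3, 1225, 849 and 578 in microglia (adjusted p = 0.568). Cxcl3 was at 0.79 (adjusted p = 0.417) and Dusp1, a phosphatase, at -0.53 (adjusted p = 0.66).

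**Figure D3:**
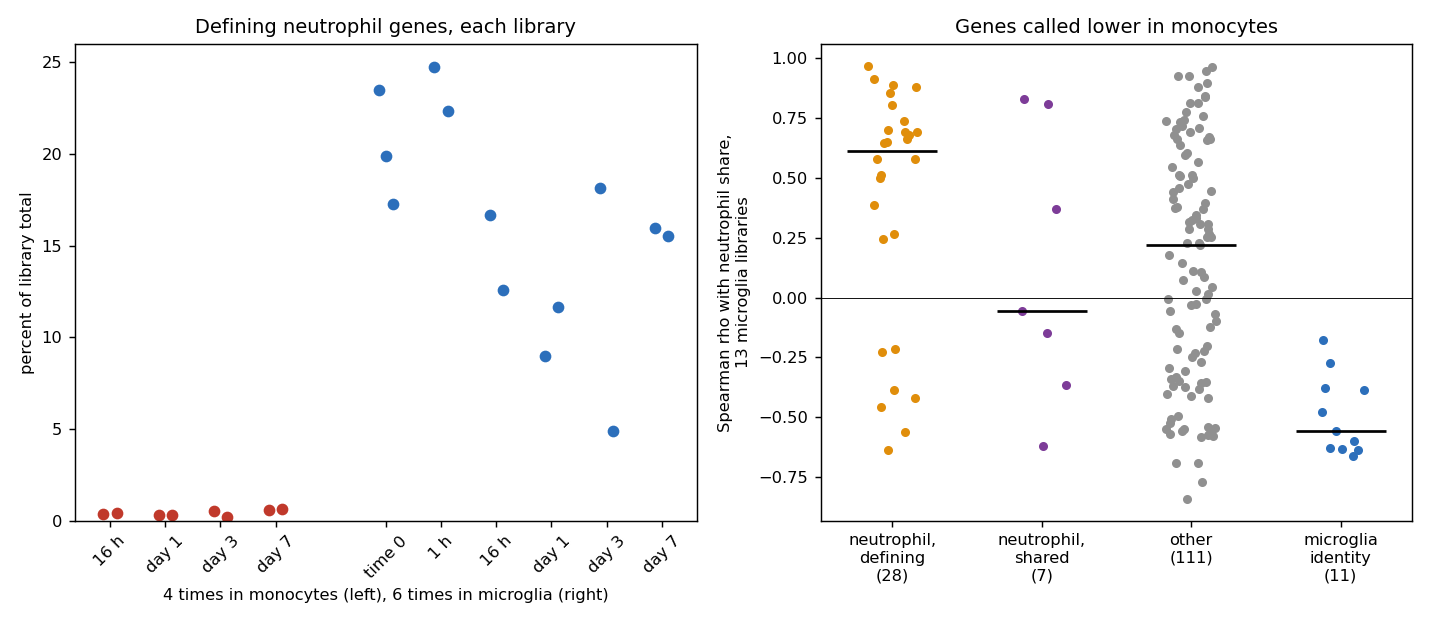
Left, percent of each library's total in defining neutrophil genes, monocytes at 4 times and then microglia at 6 times, 1 point per library. Right, for genes called lower in monocytes, the Spearman rho over 13 microglia libraries with that percent (gene itself left out), with a bar at each median: 0.61 for defining neutrophil genes and -0.55 for microglia identity genes.

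The neutrophil share differed among the 13 microglia libraries of all times, from 4.87% to 24.8%, and the genes called lower in monocytes followed it to different degrees. At time 0 the share was 17.3% to 23.5% and at 1 h 22.3% to 24.8%. At 16 h and day 1 it was 8.96% to 16.6%. A rho over these libraries therefore also carries any change of a gene with time after injury, which was not separated. The description uses Spearman's rho over those 13 libraries, with the gene itself left out of the share. The scaling of the values was not given, and the signal totals of the 13 libraries ran from 129588 to 164726. Whether a gene's value falls where neutrophil genes take more of a library was not tested. Estimated reads had a rho of 0.21 with the share. The 28 called defining genes had a median rho of 0.61, and 17 of them exceeded 0.5. The 11 called identity genes had a median of -0.55, from -0.66 to -0.18. All genes with a mean of at least 10 in microglia had a median of 0.03 (2525 genes). Within the defining list, granule genes were high (Fcnb 0.97, Camp 0.91, Ltf 0.85), while 2 receptors and a stefin gene of neutrophils were not (Csf3r -0.64, Cxcr2 -0.21, Stfa2l1 -0.46), 6 examples chosen after their values were seen. The 111 other genes spread from -0.84 to 0.96 with a median of 0.22, and 32 of them exceeded 0.5.

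Of the 12 genes with the greatest negative difference outside the neutrophil lists, several were near the top of that range. Klhl18, an adaptor of a ubiquitin ligase, had 0.339, 0.236, 0.733 and 1 in monocytes against 74.9, 57.3, 10.01 and 29.9 in microglia (log2 difference -4.50, SE 0.55, adjusted p = 3.09e-06) and a rho of 0.88. Syne1, which links the nucleus to the cytoskeleton, was at -3.88 with a rho of 0.95. Adpgk, a kinase of glycolysis, was at -3.85 with a rho of 0.81, and FAM101B, an actin regulator, at -4.27 with 0.69. Gp1bb and Sept5, whose values are equal in 7 of the 8 libraries, so that their reads may be shared and neither is certain alone, were at -4.21 and -4.19 with 0.92 each. Slc2a3, a glucose transporter, was at -4.06 with 0.51. The other members of the 12 were lower or negative: Acap1, a regulator of vesicle traffic, had a rho of 0.11, H2-Q10, a class I gene with near-identical relatives, -0.29, and Ptgs1, cyclooxygenase 1, -0.31. Sparc had -0.38 and Csf1 -0.77. The part of neutrophil RNA in the difference of any gene outside the lists was not tested.

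Other genes of the 111, chosen after their values were seen, differed in the same way in their relation to that share. Alox5, which makes leukotrienes, had 1.36, 1, 1.10 and 4.49 in monocytes against 20.96, 29.6, 27.8 and 23.03 in microglia (log2 difference -3.27, SE 0.59, adjusted p = 0.000695) and a rho of 0.67. Serpinb1a, an inhibitor of neutrophil proteases, was at -3.84 with a rho of 0.74, and Tkt, transketolase of the pentose phosphate pathway, at -1.34 with 0.96. Mxd1, a repressor of the MYC network, had 29.2, 34.4, 14.7 and 16.1 in monocytes against 172, 219, 107 and 99.04 in microglia (log2 difference -2.62, SE 0.45, adjusted p = 0.000429) and a rho of -0.10. Il18rap, a chain of the interleukin 18 receptor, was at -3.56 with -0.15, and Mmp25, a membrane metalloprotease, at -3.78 with 0.50. On the negative side, Txnip, which binds thioredoxin, had 64.99, 63.4, 49.5 and 55.7 in monocytes against 156, 298, 228 and 189 in microglia (log2 difference -1.85, SE 0.33, adjusted p = 0.000577) and a rho of -0.41. Grina, a membrane protein of the Golgi, was at -1.46 with -0.57, Cd72, an inhibitory receptor, at -3.09 with -0.52, and Marcks, a substrate of protein kinase C, at -1.63 with -0.69. The calls of Tkt and Marcks were lost in 7 of the 8 fits each, with an adjusted p of up to 0.228 without microglia 16 h replicate 1 and 0.168 without microglia 16 h replicate 2, and the other 8 kept theirs. Without a variance trend Tkt, Marcks and Grina did not pass (adjusted p = 0.203, 0.11 and 0.096).

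Microglia identity genes gave 11 lower and no higher members in monocytes of 36 measured, beside 1.91% and 1.01% of all genes. The median was -1.08, or -1.23 with genes that had no read in any library of a cell type set to 3 reads there. The list made 0.813% to 1.03% of the library total in monocytes, against 1.34% to 2.50% in microglia. C1qa, a chain of the first complement component, had 22.9, 8.72, 26.03 and 46.5 in monocytes against 138, 353, 238 and 177 in microglia (log2 difference -3.19, SE 0.40, adjusted p = 4.56e-06). C1qc, its partner chain, had 8.48, 7.54, 9.17 and 22.2 in monocytes against 67.9, 145, 92.3 and 122 in microglia (log2 difference -3.14, SE 0.40, adjusted p = 4.56e-06). Cst3, the protease inhibitor cystatin C, had 196, 223, 212 and 228 in monocytes against 591, 956, 491 and 293 in microglia (log2 difference -1.31, SE 0.21, adjusted p = 0.000193). In these 3 genes all monocyte libraries lay below all microglia libraries. Sparc had 1.02, 1, 0.367 and 1 in monocytes against 17.97, 103, 17.8 and 36.9 in microglia (log2 difference -4.24, SE 0.83, adjusted p = 0.00185), with its highest value in microglia 16 h replicate 2. Cd81, a tetraspanin, was at -3.53, Fcrls, an Fc receptor-like protein of mouse microglia, at -2.69, Cmtm6 at -1.76, Selplg, the ligand of P-selectin, at -1.42, and C1qb at -2.08. Cd81 lost its call in 2 of the 8 fits, with an adjusted p of up to 0.0732 without microglia day 1 replicate 1. Selplg and C1qb lost theirs in 6 each, with up to 0.0906 without microglia day 1 replicate 1 and up to 0.222 without monocyte 16 h replicate 2. Fcrls and Cmtm6 lost theirs in 7 each, with up to 0.213 without monocyte 16 h replicate 2 and up to 0.134 without microglia day 1 replicate 2. The other 6 called identity genes kept their calls in each of the 8 fits. Omitting the variance trend ended the calls of Cst3, Cmtm6, Selplg and C1qb (adjusted p = 0.114, 0.0519, 0.153 and 0.124), and setting values of 1 to 0 that of Fcrls (adjusted p = 0.0952). Tmem119, a marker of resident microglia, had 6.11, 2.36, 10.3 and 7.92 in monocytes against 32.9, 44.5, 22.2 and 18.4 in microglia and did not pass the test (log2 difference -2.05, SE 0.69, adjusted p = 0.122), although its groups did not overlap. Serpine2 was at -2.09 (adjusted p = 0.0598) and Bhlhe41 at -1.96 (adjusted p = 0.197).

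Promoters are shown for 2 called genes of each of 3 sets, those with the smallest p and a single start in the reference, so that the sets can be read side by side. The sequences are the 250 bases before the start, from RefSeq (build GRCm38.p6), read 5′ to 3′ on the gene's strand. Capitals mark GAGGAA, a core that the myeloid factor PU.1 binds, TGANTCA, the AP-1 site, and TTGCNNAA, a C/EBP site, on either strand. Vim is at chr2:13574061-13574310, plus strand, and Ccl9 at chr11:83578637-83578886, minus strand. C1qc is at chr4:136892915-136893164, minus strand, and Cst3 at chr2:148875513-148875762, minus strand. Retnlg is at chr16:48872358-48872607, plus strand, and Ltf at chr9:111019042-111019291, plus strand. Vim and Ccl9 were higher in monocytes, C1qc and Cst3 are microglia identity genes and Retnlg and Ltf defining neutrophil genes.
Vim: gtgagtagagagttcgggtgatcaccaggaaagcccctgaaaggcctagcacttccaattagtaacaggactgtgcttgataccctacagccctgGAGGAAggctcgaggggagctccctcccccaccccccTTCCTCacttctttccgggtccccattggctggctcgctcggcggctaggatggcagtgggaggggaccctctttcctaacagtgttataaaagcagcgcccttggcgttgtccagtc
Ccl9: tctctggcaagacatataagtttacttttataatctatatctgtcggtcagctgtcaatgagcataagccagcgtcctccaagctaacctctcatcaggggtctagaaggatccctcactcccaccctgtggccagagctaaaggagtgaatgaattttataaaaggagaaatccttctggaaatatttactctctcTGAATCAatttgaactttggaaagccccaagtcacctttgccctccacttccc
C1qc: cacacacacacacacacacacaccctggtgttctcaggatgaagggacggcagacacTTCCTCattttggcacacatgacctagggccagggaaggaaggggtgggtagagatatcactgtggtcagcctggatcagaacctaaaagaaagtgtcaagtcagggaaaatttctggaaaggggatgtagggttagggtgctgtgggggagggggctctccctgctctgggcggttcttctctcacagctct
Cst3: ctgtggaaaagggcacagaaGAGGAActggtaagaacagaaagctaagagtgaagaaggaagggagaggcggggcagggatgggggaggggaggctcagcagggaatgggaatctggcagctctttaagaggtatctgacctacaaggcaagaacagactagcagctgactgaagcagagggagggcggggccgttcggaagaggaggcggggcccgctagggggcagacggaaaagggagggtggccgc
Retnlg: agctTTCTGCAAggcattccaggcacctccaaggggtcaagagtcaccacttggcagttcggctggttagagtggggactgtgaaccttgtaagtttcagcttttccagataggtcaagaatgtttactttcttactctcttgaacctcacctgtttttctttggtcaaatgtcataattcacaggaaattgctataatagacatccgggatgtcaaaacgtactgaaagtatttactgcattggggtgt
Ltf: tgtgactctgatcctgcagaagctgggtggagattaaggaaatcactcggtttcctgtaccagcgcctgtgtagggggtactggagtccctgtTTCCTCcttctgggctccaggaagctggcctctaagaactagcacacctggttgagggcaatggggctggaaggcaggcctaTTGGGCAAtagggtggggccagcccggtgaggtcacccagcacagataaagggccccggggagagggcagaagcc

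GAGGAA was found in 23.0% of all 22862 promoters with a single start, TGANTCA in 6.96% and TTGCNNAA in 9.60%. The motifs do not overlap each other in the 6 windows shown. Of 22 defining neutrophil genes with a window, 11 held GAGGAA and 7 held TTGCNNAA (31.8%), and among the 59 other genes lower in monocytes 18 held GAGGAA and 6 TTGCNNAA (10.2%). Of 8 identity genes with a window, 4 held GAGGAA and none TTGCNNAA or TGANTCA. Of 43 genes higher in monocytes, 9 held GAGGAA, 5 TGANTCA (11.6%) and 3 TTGCNNAA. A match of letters is not a bound site, and these shares were not tested.

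Complement other than C1q did not pass the test in either direction. Cfp, properdin of the alternative pathway, was at 1.07 (adjusted p = 0.113), and C3, the central component, at -0.47 (adjusted p = 0.751). Of 32 measured lysosomal, lipid and damage-response genes, 3 were lower in monocytes and none was higher, beside 1.91% and 1.01% of all genes (median 0.21). Cd63, a tetraspanin of late endosomes, had 8.65, 5.42, 9.17 and 13.2 in monocytes against 33.4, 45.96, 73.9 and 81.8 in microglia (log2 difference -2.53, SE 0.45, adjusted p = 0.000566). Ch25h, which makes 25-hydroxycholesterol, had 2.55, 1, 1 and 1 in monocytes against 12.98, 85.98, 10.01 and 4.61 in microglia (log2 difference -2.84, SE 0.62, adjusted p = 0.00558), with reads in 1 of the monocyte libraries. Ctsd, cathepsin D, had 122, 121, 282 and 347 in monocytes against 233, 332, 504 and 619.6 in microglia (log2 difference -1.01, SE 0.23, adjusted p = 0.00795), and its groups overlapped when times were pooled. Ch25h lost its call in 2 and Ctsd in 3 of the 8 fits, with an adjusted p of up to 0.059 without monocyte 16 h replicate 2 and 0.0808 without microglia day 1 replicate 2. Ctsd did not pass without a variance trend (adjusted p = 0.305). Ctsc was at 1.44 (adjusted p = 0.0831) and the lipid droplet protein Plin2 at 1.09 (adjusted p = 0.157).

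Transcription factors gave 2 higher and 4 lower of 48 measured, beside 1.01% and 1.91% of all genes. Hif1a, described above, was among the higher ones. Cebpd, a C/EBP factor of the acute phase, had 17.8, 14.6, 15.4 and 18.2 in monocytes against 70.9, 50.4, 62.3 and 76.004 in microglia (log2 difference -1.90, SE 0.41, adjusted p = 0.00472). Junb, an AP-1 subunit, was at -0.76, Klf2 at -1.44 and the immediate early gene Egr3 at -1.87. Their calls were lost in 7, 7 and 6 of the 8 fits, with an adjusted p of up to 0.192 without monocyte day 1 replicate 2, 0.288 without monocyte day 1 replicate 1 and 0.131 without monocyte 16 h replicate 2. Junb and Klf2 did not pass without a variance trend (adjusted p = 0.458 and 0.147), nor Egr3 with values of 1 set to 0 (adjusted p = 0.144). Zeb2, a repressor that microglia also carry, was at 2.03 (adjusted p = 0.122) and Klf4, a factor of monocyte growth, at 1.69 (adjusted p = 0.151).

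Cell cycle genes gave no higher and 3 lower members of 39 measured, beside 1.01% and 1.91% of all genes (median -0.54). Ccnd3, a D-type cyclin, had 34.02, 27.8, 36.3 and 41.1 in monocytes against 167, 138, 84.5 and 99.04 in microglia (log2 difference -1.74, SE 0.33, adjusted p = 0.00151) and a rho with the neutrophil share of 0.70. Hmgb2, a chromatin protein, was at -2.14 with a rho of 0.77, and Aurka, a mitotic kinase, at -2.38 from a few reads per library. The calls of Hmgb2 and Aurka were lost in 3 and 6 of the 8 fits, with an adjusted p of up to 0.0643 without monocyte day 1 replicate 1 and 0.213 without microglia day 1 replicate 2. Ccnd3 had an adjusted p of 0.0506 without a variance trend, and Aurka of 0.141 with values of 1 set to 0. The proliferation marker Mki67 was at -2.51 (adjusted p = 0.114) and Cdk1 at -2.28 (adjusted p = 0.0863). In the iron list, Slc40a1, the iron exporter ferroportin, was at -2.21, and its call was lost in each of the 8 fits (adjusted p of up to 0.176 without monocyte 16 h replicate 1, and 0.0629 with values of 1 set to 0). Lcn2, which binds bacterial iron carriers, is on the iron and the neutrophil lists. The heme enzyme Blvrb was at 1.32 (adjusted p = 0.411) and the ferric reductase Steap4 at -1.29 (adjusted p = 0.172).

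Other programmes gave few calls or none. Beside the lists that follow stand 2.92% of all genes called and 1063 of 8218 with an unadjusted p under 0.05, and the counts below are to be read against these shares. None of 41 interferon response genes passed the test, with a median of -0.38 and 9 at an unadjusted p under 0.05. Isg20 had 11.4, 10.9, 19.5 and 31.2 in monocytes against 30.9, 131, 60.04 and 168 in microglia (adjusted p = 0.0874), and Rsad2, the antiviral viperin, 9.67, 31.1, 50.6 and 52.8 in monocytes against 95.8, 155, 110.1 and 244 in microglia (adjusted p = 0.0893). None of 34 genes of pattern recognition and NF-kappaB passed (median 0.23, 1 at an unadjusted p under 0.05). Among 75 respiratory chain genes no call was made. Their median was 0.63 and 8 had an unadjusted p under 0.05. Atp5b, a subunit of ATP synthase, was at 1.16 (adjusted p = 0.0802). Integrins and adhesion genes gave no higher and 2 lower of 21 measured, and those were Selplg and Cd81. Integrin subunit Itgb2 was at 0.53 (adjusted p = 0.434) and Cd44, the hyaluronan receptor, at 1.06 (adjusted p = 0.265). Sod2, a mitochondrial superoxide dismutase on the NF-kappaB list, had 19.2, 34.2, 36.7 and 33.5 in monocytes against 6.99, 28.7, 7.78 and 2.30 in microglia (adjusted p = 0.157), and Tlr8, a sensor of RNA, 9.67, 9.19, 9.90 and 9.50 in monocytes against 1, 1, 6.67 and 18.4 in microglia (adjusted p = 0.493).

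Apart from neutrophil genes, few markers of other cells that a sort could carry along were measured. No gene was called from the lists of lymphocytes (6 of 22 measured), astrocytes (2 of 10), oligodendrocytes (5 of 14), neurons (2 of 12), endothelium (4 of 12), fibroblasts (2 of 12) or erythroid cells (4 of 12). Beta globin, Beta-s in the table, had 1.61, 0.236, 75.6 and 0.792 in monocytes against 3.49, 292, 0.556 and 294 in microglia, so that monocyte day 1 replicate 1, microglia 16 h replicate 2 and microglia day 1 replicate 2 stood apart. Erythroid genes made 0.00204% to 0.216% of the library total in monocytes, against 0.00383% to 0.653% in microglia (2-sided exact permutation test, n = 4 each, p = 0.171). From the dendritic cell list Ccl17 was higher and Ffar2 lower in monocytes, and of 7 measured genes of border macrophages Pf4 alone was called. The lymphocyte gene Nkg7 had a signal above 1 in microglia day 1 replicate 2 only, and the neuronal gene Rbfox3 had no read in any of the 8 libraries.

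Taken at each time alone, 24 genes were higher and 83 lower in monocytes at 16 h (1.30% of genes, 0.292% higher and 1.01% lower). At day 1, 12 were higher and 46 lower (0.706%, 0.146% higher and 0.56% lower). The 2 times have separate libraries, and with 2 against 2 each has a wider error than the pooled comparison (median SE of a log2 difference 0.90 at either time, 0.63 pooled). All 83 genes higher and all 157 lower in the pooled comparison had the same sign at both times, a property that the pooled mean favours. The number lower in monocytes at 16 h included 25 defining neutrophil and 6 identity genes, and that at day 1 included 21 and 3. Fn1 differed by 2.30 at 16 h and 3.13 at day 1, and Arg1 by 3.89 at 16 h and 2.90 at day 1. Cx3cr1 differed by -2.22 at 16 h and -2.73 at day 1 and C1qa by -3.86 at 16 h and -2.53 at day 1. Leaving out 1 library of the time itself gave 28 to 46 calls at 16 h and 21 to 80 at day 1, with the highest of the day 1 counts without microglia day 1 replicate 1.

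**Figure D4:**
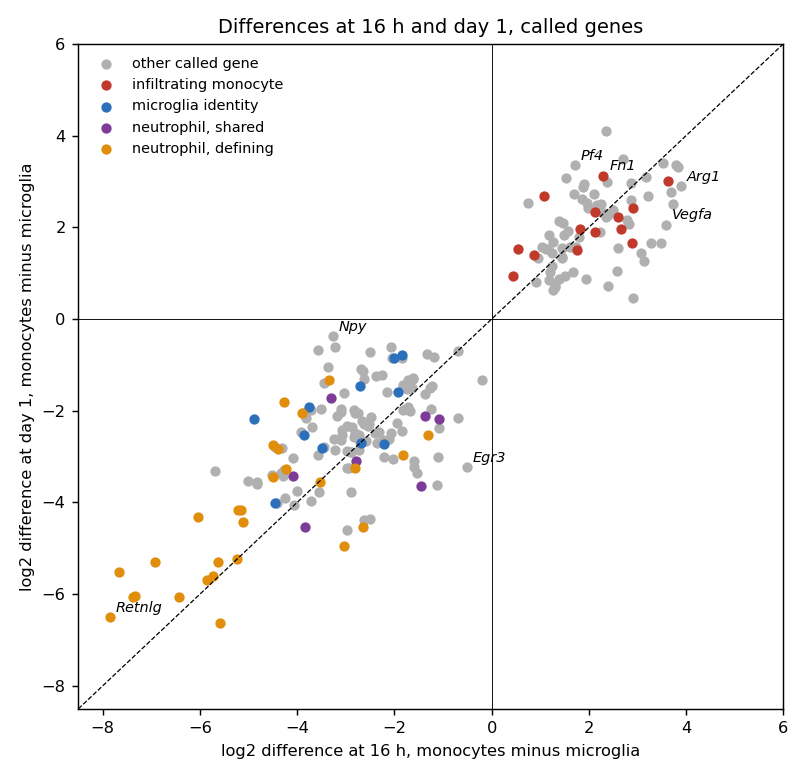
The 240 called genes, with the log2 difference at 16 h on the x axis and at day 1 on the y axis, monocytes minus microglia, and a dashed line where both are equal. All points have the same sign on both axes, and Npy (-3.26 at 16 h and -0.37 at day 1) lies far from the line.

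No gene passed the test of the difference between the times, day 1 minus 16 h (0.0% of 8218 genes called by limma, while 173 had an unadjusted p below 0.05). The 4 with the smallest p are given as values. Cnp, an enzyme of myelin that is abundant in oligodendrocytes, had 0.339, 1.41, 5.13 and 9.50 in monocytes against 21.5, 13.8, 4.45 and 1 in microglia. Actb, beta actin, had 2411, 2676, 3209 and 3037 in monocytes against 4326, 3649.8, 2801 and 2517 in microglia. Npy, neuropeptide Y, had 1.19, 0.471, 1 and 0.264 in monocytes against 18.97, 13.8, 1.11 and 1 in microglia. The transcript 4931406H21RIK, with no name in the table, had 28.6, 20.48, 14.9 and 8.65 in monocytes against 1.16, 1.24, 15.8 and 25.3 in microglia. Each had an adjusted p of 1. In Npy the high values were those of the 16 h microglia. In Cnp and Actb monocytes were below microglia in all 4 libraries at 16 h and above them at day 1, and in 4931406H21RIK the order was the other way round.

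The acute contrast was then set against the same contrast at day 3 and day 7, another 8 libraries of the same table. Over the genes of the table, microglia libraries of day 3 and day 7 had an estimated 31249 to 82702 reads. Those of monocytes had 132118 to 671575. A single read was worth 1.76 to 4.15 in these microglia libraries. Their low values, as in Vdr, Nos2 and Irg1 below, rest on a few reads or none. The part of this depth in the results was not tested. A single gene passed the test of the acute minus late difference, Arg1 (0.0122% of 8218), while 443 genes had an unadjusted p below 0.05. At day 3 and day 7 Arg1 had 132, 92.9, 33.1 and 34.5 in monocytes against 72.1, 76.4, 120.3 and 108 in microglia, so that the cell types overlapped there, while in the acute libraries every monocyte value was above every microglia value. The difference of the contrast was log2 3.97, SE 0.42, adjusted p = 2.83e-06, and it passed in each of the other fits, with a log2 of 3.75 to 4.52 and an adjusted p of up to 0.0354. The next by p did not pass: Lipg, an endothelial-type lipase, Irg1, Vdr and Nos2 each had an adjusted p of 0.102. Vdr at day 3 and day 7 had 4.36, 5.53, 2.55 and 3.75 in monocytes against 1.76, 8.04, 15.04 and 4.15 in microglia (log2 4.03, SE 0.85, adjusted p = 0.102). Nos2 had 0.436, 0.184, 1 and 1 in monocytes against 1, 1, 1 and 1 in microglia (log2 3.03, SE 0.65, adjusted p = 0.102). Irg1 had 1.96, 4.61, 3.40 and 2.25 in monocytes against 1, 1, 3.76 and 1 in microglia (log2 -4.42, SE 0.91, adjusted p = 0.102). Defining neutrophil genes made 4.87% to 18.1% of the microglia totals at day 3 and day 7.

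**Figure D5:**
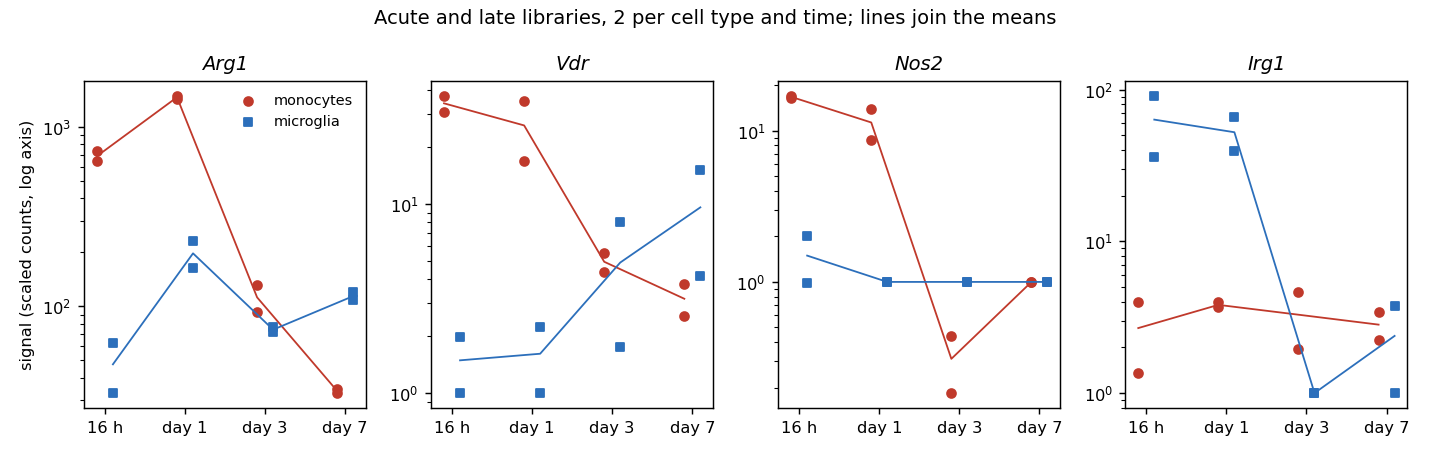
Signal of Arg1, Vdr, Nos2 and Irg1 at 16 h, day 1, day 3 and day 7 on log axes, monocytes as circles and microglia as squares, 2 libraries per point in time, with lines through the means. Arg1 in monocytes was at 643 to 1485 in the acute libraries and at 33.1 to 132 later, and the other 3 genes, shown after their values were seen, did not pass the test of the difference.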

How the data were processed

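Monocytes and microglia sorted from injured spinal cord were sequenced by the submitters as total RNA, and a table of the whole series holds the 21 in vivo libraries. The deposited signal values per gene are neither whole numbers nor a unit named by the authors. TopHat and the build mm9 are named in the submitters' processing notes. The version of TopHat, the counter, annotation and scaling were not given in the sources used here. In the acute libraries 87.3% to 89.5% of low values were whole multiples of a step per library (tolerance 0.05 steps, values of up to 20 reads), which gave the estimated reads, but too many were not whole for a count model, so the test for a normalized unit was used.

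Signal was tested with limma 3.58.1 (R 4.3.3, empirical Bayes with trend and robust fit) on log2(signal + 1), which understates changes of low genes. All 21 libraries entered, with a coefficient per cell type and time, and Benjamini-Hochberg adjustment covered 8218 genes, which were called below 0.05. A log2 difference and its SE are on that scale, monocytes minus microglia. The comparison was also made at each time, between times and against day 3 and day 7. The fit was also run on simulated libraries with a common mean profile and a common spread for all genes. Those do not copy the neutrophil share or the replicate agreement of the data, and no result here rests on them. The erythroid share was compared with an exact permutation test (scipy 1.17.1). A row without a gene name held at most 0.0165% of a library and was left out. In all, 7443 symbols matched the RefSeq tables, ignoring case.

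The cell types, the 30 gene lists (608 genes measured) and the ribosomal genes were chosen with earlier results of these data known. Named genes are the 12 of greatest difference in each direction with a mean of at least 20 and no overlap outside the neutrophil lists, up to 4 called members per list and direction and up to 3 uncalled ones by smallest p, up to 6 members of each neutrophil list by level in microglia, and up to 6 genes per difference between times, or the 4 of smallest p. Outside that rule and chosen after their values were seen are P2ry12, Csf1r, Chi3l3, Ly6c2, Lyz1, Lyz2, S100a4, S100a10, Ecm1, Mmp19, Lgals3, Fcrls, Cmtm6, Elane, Mpo, Irg1, Fcnb, Csf3r, Stfa2l1 and those named so in the text. A few members of the lists are counted but not reported here by name. Alternatives were another pseudocount, values of 1 set to 0, a mean of at least 10, quantile normalization, totals without neutrophil genes, array weights, no trend, the libraries of the contrast alone, the replicate block and each acute library left out.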

Additional observations from a re-analysis of the deposited data

Results flagged for a closer look

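Arg1 was picked out by a difference between time windows, by the test of that difference itself (limma, Benjamini-Hochberg adjustment over all genes). The log2 difference between monocytes and microglia was 3.97 higher in the acute window than at day 3 and day 7 (SE 0.42, adjusted p = 2.83e-06). The acute means were 1072 ± 448 in monocytes and 122 ± 91.6 in microglia, and those at day 3 and day 7 were 73.1 ± 48.0 in monocytes and 94.2 ± 23.6 in microglia (SD, n = 4 each). In the acute window the monocytes were higher in 4 of 4 libraries. Groups of 2 libraries were too small to look for single libraries far from the others.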

How the results depend on the processing

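The pooled comparison called 781 genes with array weights (374 higher, 407 lower in monocytes), 158 without a variance trend (42 and 116), 370 from the libraries of the contrast alone (161 and 209) and 138 to 253 with 1 library left out. At 16 h the counts were 453 with array weights, 67 without a trend and 28 to 88 with 1 library left out. At day 1 they were 110 among genes with a mean of at least 10, 240 with array weights and 21 to 80 with 1 library left out. A group left with 1 library was taken to vary as much as the rest. The difference between acute and late windows was called for 5 genes with a pseudocount of 5, 4 with a mean of at least 10, 2 after quantile normalization and 6 without a trend, always with Arg1. Beside it these fits called Vdr each time, and Irg1 and Lipg in 3 of the 4. No other fit called more than Arg1, and the difference between day 1 and 16 h had no call in any fit. The neutrophil share differed by -13.3 to -10.7 percentage points with 1 library left out. The cause of these shifts was not tested.

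Deviations of same-numbered monocyte and microglia libraries from their group means had a correlation of 0.0036 at 16 h and -0.0054 at day 1. With 2 libraries per group each time gives a single value, which cannot show whether libraries shared animals or a batch. With the replicate block, 78 genes were called pooled (22 and 56), 15 at 16 h and 10 at day 1, and 54 of 104 named called genes lost their call. Of the same 104, 29 lost it without a trend and 15 with values of 1 set to 0. None of the 104 changed sign in any fit. The median of all genes shifted by 0.18 when values of 1 were set to 0 and by 0.15 with a mean of at least 10, where 151 genes were higher and 158 lower. Depth limits low genes most, since a read was worth up to 2.30 in the acute microglia libraries and up to 4.15 in those of day 3 and day 7.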
